A study of Mus musculus with 12 samples.

Results

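The matrix metalloproteinases (MMPs) Mmp2, Mmp8, Mmp9, Mmp12, Mmp14 and Mmp19, their tissue inhibitors Timp1, Timp2 and Timp3, and the membrane protease Adam8 were examined in alveolar macrophages of mice that had inhaled ozone or filtered air. These 10 genes were taken by symbol from the 55291 symbols of the expression table, and all 10 were found. These cells, which live in the air spaces and take up particles and microbes, were isolated by flow sorting from the lungs of female C57BL/6NJ mice of 8 to 11 weeks. The 6 ozone mice breathed 0.8 ppm ozone for 4 h a day on 4 consecutive days, the 6 control mice breathed filtered air, and lungs were taken 3 days after the last exposure in both groups. Each mouse gave 1 RNA-seq library, and each of the 2 flow-sort batches held 3 mice of each group.

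MMPs are zinc-dependent endopeptidases that are made as inactive proenzymes and, once active, cleave collagens, elastin, other matrix proteins and many cytokines and receptors. TIMPs bind the active site of these enzymes and block it. Macrophages are a main source of the elastase Mmp12, which is well known from smoke-induced emphysema in mice. Neutrophils store the collagenase Mmp8 and the gelatinase Mmp9 in granules. Fibroblasts and other stromal cells make much of the Mmp2, Mmp14 and TIMPs of the lung.

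None of the 10 genes differed between ozone and filtered air by the test used. In limma, with p-values adjusted by the Benjamini-Hochberg method over the 19633 genes tested, 0 of 10 had an adjusted p under 0.05, and the lowest was 0.305, for Mmp8. Over all genes tested, 4.25% were called at this threshold, 2.41% higher and 1.84% lower after ozone. At an unadjusted p under 0.05 the count was also 0 of 10, where 16.7% of all genes passed. Between 0.0522 and 0.0814 lay 6 of the 10 unadjusted p-values, those of Mmp2, Mmp8, Mmp12 and Mmp14 with higher means after ozone and those of Mmp19 and Timp3 with lower means. These bounds were drawn around the values after they were seen. By p-value the 6 genes ranked from 3359 (Mmp8) to 4188 (Mmp14) among the 19633 genes tested. Every gene overlapped between the groups, so 0 of 10 were separate, and 3.53% of all genes were.

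Expression is given as log2 values after a variance-stabilizing transformation, with the average of the 6 control mice set at 0 for each gene. The table thus holds no measure of how abundant a transcript is, so the 10 genes cannot be ranked by level, and differences of genes with few reads are compressed. The total number of reads is unknown. In genes at the detection limit, mice of a flow-sort batch share one lowest value, and a gene counts here as detected in a mouse above it. All 10 genes were detected in all 12 mice. RNA integrity numbers ran from 8.9 to 9.7. All 10 listed resident alveolar macrophage genes, among them Siglecf, Itgax, Marco, Fabp4 and Pparg, were detected in all 12 mice. So were all 10 genes of each of the monocyte, endothelial, alveolar epithelial, T and NK, B and plasma, and dendritic cell lists, so detection does not tell the labelled cell type from others, and without abundance the label could not be checked further. Of the 10 listed neutrophil genes, S100a8, S100a9, Retnlg, Csf3r, Ltf and Cxcr2 were detected in all 12 mice, Camp in 0, Ly6g in 1, Ngp in 2 and Mpo in 3.

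**Figure D1:**
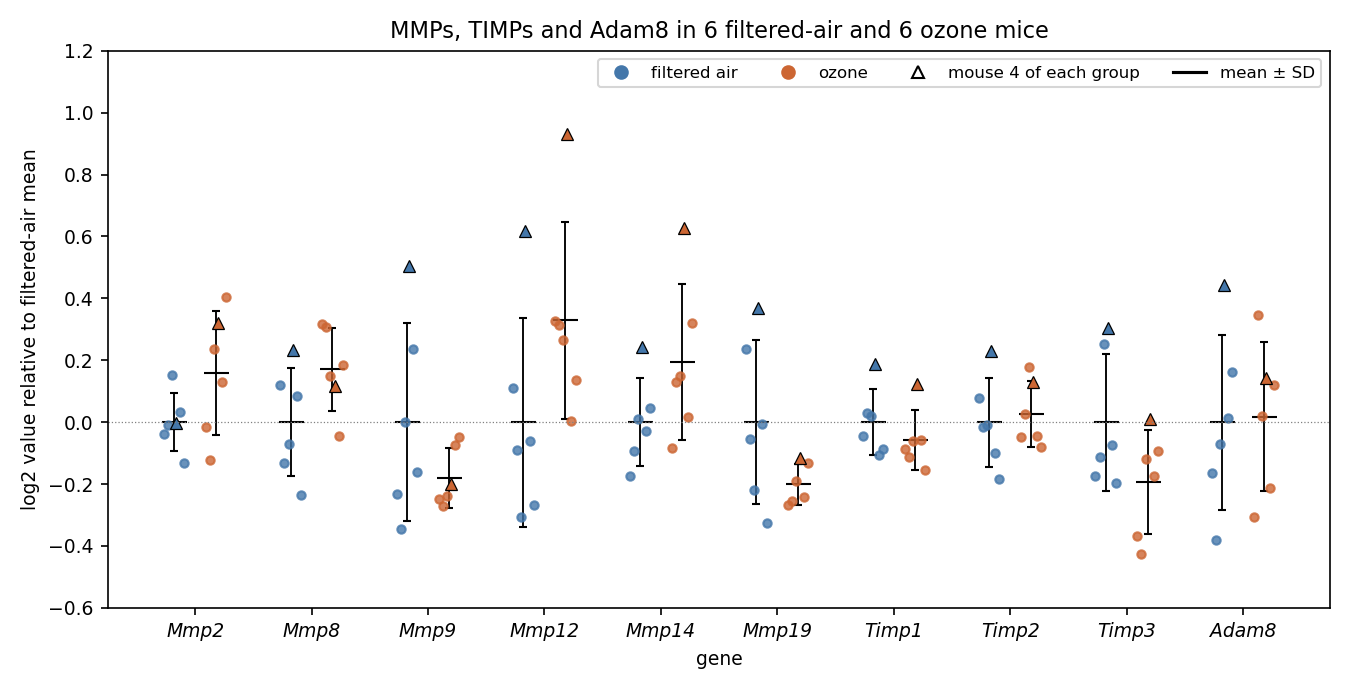
Log2 values of each gene relative to the filtered-air mean (vertical axis) by gene (horizontal axis), with 1 point per mouse, and the mean with its SD in black. Groups overlap in every gene, Mmp12 reaches 0.93 in ozone mouse 4, and filtered-air mouse 4 is the highest control in 9 of the 10 genes.

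Mmp12, the macrophage metalloelastase, had the largest mean difference of the set. Filtered-air mice ranged from -0.31 to 0.62 with a median of -0.075, and ozone mice from 0.0050 to 0.93 with a median of 0.29. Its mean after ozone was 0.33 ± 0.318 (SD, n = 6) against an SD of 0.338 in filtered air, a difference of 0.33 (95% interval -0.016 to 0.68, limma's adjusted p = 0.327). The highest mouse of each group was mouse 4, and the other filtered-air mice reached no more than 0.11. Above that level, chosen after the values were seen, lay 5 of the 6 ozone mice, while 1 of 6 lay above every filtered-air mouse. Without filtered-air mouse 4 the difference was 0.47 with an adjusted p of 0.0661, and without ozone mouse 4 it was 0.20 with an adjusted p of 0.554. Without both it was 0.33, with an adjusted p of 0.0659. The difference was 0.50 in flow-sort batch 1 and 0.16 in batch 2.

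Mmp12 lies on chromosome 9 of GRCm38 (mm10), from 7344381 to 7369499 on the plus strand, and overlaps Mmp1b on the other strand. RefSeq gives it a pair of start sites. Their promoter windows, 250 bases before and 50 after each start, are shown because Mmp12 had the largest difference of the set and Fos, a subunit of the AP-1 transcription factor, was called higher after ozone, as described further on. The AP-1 motif TGANTCA, searched on both strands in one pass because it reads the same on each, is in capitals; 0 copies are in the window at chr9:7344147-7344446 and 1 is in the window at chr9:7347124-7347423, both on the plus strand. The copy begins at position -44 relative to the start site. A motif match describes the letters only.
Mmp12, upstream start: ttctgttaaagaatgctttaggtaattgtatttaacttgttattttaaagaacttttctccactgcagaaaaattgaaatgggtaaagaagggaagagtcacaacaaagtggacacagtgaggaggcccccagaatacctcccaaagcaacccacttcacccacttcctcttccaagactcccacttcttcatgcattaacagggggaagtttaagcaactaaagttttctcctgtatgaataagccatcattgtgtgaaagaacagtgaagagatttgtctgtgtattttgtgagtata
Mmp12, downstream start: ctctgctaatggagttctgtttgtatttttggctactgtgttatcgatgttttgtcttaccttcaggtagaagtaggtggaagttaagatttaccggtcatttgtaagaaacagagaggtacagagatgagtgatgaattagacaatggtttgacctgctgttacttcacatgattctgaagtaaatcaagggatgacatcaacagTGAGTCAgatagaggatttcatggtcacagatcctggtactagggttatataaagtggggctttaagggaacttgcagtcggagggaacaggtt

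Of the 32851 promoter windows of this length in the RefSeq table, 7.81% hold the motif. Windows were given for 7 of the 10 genes (Mmp8, Mmp12, Mmp14, Timp1, Timp2, Timp3 and Adam8), 8 in all, and the downstream Mmp12 window was the 1 with a match.

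Mmp8, the collagenase best known from neutrophils, had the smallest p-value of the set. Filtered-air mice ranged from -0.24 to 0.23 with a median of 0.0078, and ozone mice from -0.046 to 0.32 with a median of 0.17. The difference was 0.17 (95% interval -0.0018 to 0.34, limma's adjusted p = 0.305), and 2 of 6 ozone mice lay above every filtered-air mouse. It was 0.081 in batch 1 and 0.26 in batch 2. Of the 10 listed neutrophil markers 6 could be tested, and their mean ran from -0.12 to 0.23 in filtered-air mice and from 0.042 to 0.22 in ozone mice. The one called marker was Cxcr2, a chemokine receptor, which rose by 0.79 (limma's adjusted p = 0.000451). The other 5 had differences from -0.27 for Csf3r (adjusted p = 0.0837) to 0.15 for Ltf (adjusted p = 0.498), with 3 of the 6 lower and a list median of 0.035. The part of neutrophil RNA in the Mmp8 values was not tested. Elane, Ctsg and Prtn3, the serine elastases of neutrophil granules, were detected in 0, 1 and 4 mice.

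Mmp9, a gelatinase and also a neutrophil granule enzyme, had a lower mean after ozone. Filtered-air mice ranged from -0.35 to 0.50 with a median of -0.080, and ozone mice from -0.27 to -0.048 with a median of -0.22. All 6 ozone mice lay inside the range of the filtered-air mice. The difference was -0.18 (95% interval -0.43 to 0.072, limma's adjusted p = 0.503), at -0.18 in each batch. Without filtered-air mouse 4, which held the highest value, it was -0.068 with an adjusted p of 0.783.

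Mmp19, a secreted MMP that cleaves basement membrane proteins, showed the same layout. Filtered-air mice ranged from -0.33 to 0.37 with a median of -0.031, and ozone mice lay between -0.27 and -0.11 with a median of -0.22. The difference was -0.20 (95% interval -0.41 to 0.0079, limma's adjusted p = 0.322), with -0.21 in batch 1 and -0.19 in batch 2. Without filtered-air mouse 4 it was -0.12, with an adjusted p of 0.535. The SD of the filtered-air mice was 4.02 times that of the ozone mice in Mmp19 and 3.33 times in Mmp9, while in Mmp2 and Mmp14 it was smaller than after ozone. These differences in spread were not tested.

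Mmp14, a membrane-anchored MMP, activates pro-Mmp2 on the cell surface with the help of Timp2. In Mmp14, filtered-air mice ranged from -0.17 to 0.24 with a median of -0.010, and ozone mice from -0.084 to 0.63 with a median of 0.14. The difference was 0.19 (95% interval -0.027 to 0.41, limma's adjusted p = 0.381), 0.32 in batch 1 and 0.064 in batch 2. Ozone mouse 4 was the highest, as in Mmp12, and without it the difference was 0.097 with an adjusted p of 0.622.

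Mmp2, the gelatinase that Mmp14 activates, ranged from -0.13 to 0.15 in filtered-air mice with a median of -0.0068, and from -0.12 to 0.40 in ozone mice with a median of 0.18. The difference was 0.16 (95% interval -0.014 to 0.33, limma's adjusted p = 0.352), with 0.061 in batch 1 and 0.26 in batch 2, and 3 of 6 ozone mice lay above every filtered-air mouse. The highest value, 0.40, was that of ozone mouse 6, followed by ozone mouse 4 at 0.32. Without ozone mouse 6 the difference was 0.10 with an adjusted p of 0.531. The mean of the 10 fibroblast markers was also highest in those mice among the ozone group, at 0.22 and 0.14, within a range of -0.14 to 0.22 after ozone and of -0.11 to 0.13 in filtered air. Of these markers 0 of 10 were called between the groups, 9 of the 10 were detected in all 12 mice, and Lum in 9. Ozone mice 6 and 4 were also the highest of their group in the endothelial (0.22 and 0.059) and alveolar epithelial (0.025 and -0.036) means. The part of stromal or other RNA in the Mmp2 values was not tested. In bulk samples, fewer cells of a type and less RNA per cell cannot be told apart.

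Among the inhibitors, Timp3, which binds to the matrix and also inhibits Adam17, had the largest difference. Filtered-air mice ranged from -0.20 to 0.31 with a median of -0.094, and ozone mice from -0.43 to 0.011 with a median of -0.15. The difference was -0.19 (95% interval -0.41 to 0.018, limma's adjusted p = 0.352), with -0.20 in batch 1 and -0.19 in batch 2, and 2 of 6 ozone mice lay below every filtered-air mouse. Without filtered-air mouse 4, the highest control, it was -0.13 with an adjusted p of 0.575. The mean of the 10 endothelial markers was high in the same 2 filtered-air mice as Timp3, at 0.28 in mouse 3 and 0.23 in mouse 4, and lowest after ozone in the same 2 mice, at -0.31 in mouse 1 and -0.26 in mouse 2. Timp3 was at 0.25 and 0.31 in the former and at -0.37 and -0.43 in the latter. The endothelial mean ranged from -0.25 to 0.28 in filtered air and from -0.31 to 0.22 after ozone, 9 of the 10 genes had lower means after ozone, and 0 were called. The fibroblast mean had the same 2 filtered-air mice highest (0.128 and 0.104) and the same 2 ozone mice lowest (-0.138 and -0.129). So did the alveolar epithelial mean, at 0.176 and 0.257 against -0.178 in each. Ozone mouse 6 had the highest endothelial mean after ozone, 0.22, with Timp3 at -0.094. The part of endothelial or other RNA in the Timp3 values was not tested.

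Timp1, an inducible inhibitor that binds pro-Mmp9, ranged from -0.11 to 0.19 in filtered-air mice and from -0.16 to 0.12 in ozone mice, with medians of -0.012 and -0.074. The difference was -0.058 (95% interval -0.18 to 0.064, limma's adjusted p = 0.695), and it had opposite signs in the batches, 0.028 and -0.14. It was -0.016 without filtered-air mouse 4 (adjusted p = 0.930), -0.098 without ozone mouse 4 (adjusted p = 0.402) and -0.036 without ozone mouse 6 (adjusted p = 0.820). Timp2 ranged from -0.18 to 0.23 in filtered air and from -0.081 to 0.18 after ozone, with medians of -0.013 and -0.010. Its difference was 0.027 (95% interval -0.12 to 0.17, limma's adjusted p = 0.899), and it ran from -0.014 to 0.078 with single mice left out. The intervals of these genes allow differences of up to 0.18 and 0.17 in size.

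Adam8, a disintegrin and metalloproteinase of leukocytes that sheds surface proteins and is not inhibited by TIMPs, had a wide range in both groups. Filtered-air mice ranged from -0.38 to 0.44 with a median of -0.028, and ozone mice from -0.31 to 0.35 with a median of 0.069. The difference was 0.018 (95% interval -0.26 to 0.30, limma's adjusted p = 0.970), with 0.17 in batch 1 and -0.13 in batch 2. With single mice left out it ran from -0.067, without filtered-air mouse 2, to 0.12, without filtered-air mouse 4.

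**Figure D2:**
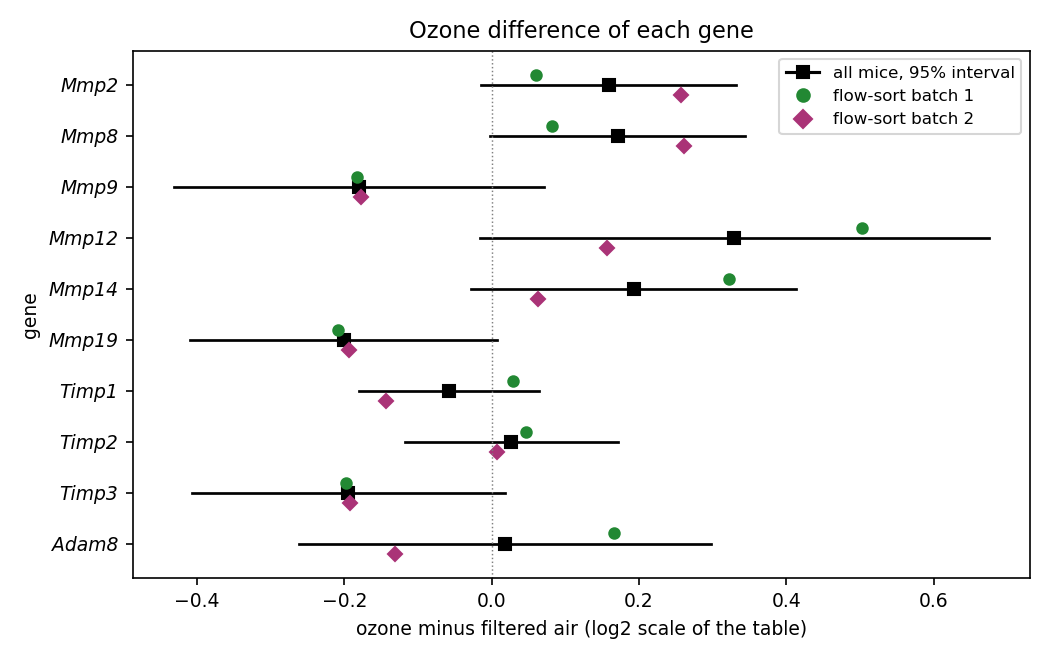
Difference between ozone and filtered air on the log2 scale of the table (horizontal axis) for each gene (vertical axis), as the estimate over all 12 mice with its 95% interval and as the difference within each flow-sort batch. Every interval includes 0, and Timp1 and Adam8 have opposite signs in the batches.

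The difference had the same sign in both batches in 8 of the 10 genes. In limma's test of the interaction between exposure and batch, 0 of 10 had an adjusted p under 0.05, as did 0% of all genes, and 0 of 10 had an unadjusted p under 0.05, where 2.6% of all genes did. The lowest unadjusted p was 0.136, for Timp1. The half-widths of the 95% intervals ran from 0.12 for Timp1 to 0.35 for Mmp12. These intervals are not adjusted for the number of genes tested, so a difference must exceed them to be called.

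The balance of an enzyme to its inhibitor was read in each mouse as the difference of their log2 values, with no test, because the pairs were chosen after the values of the genes were known. Mmp12 minus Timp1 ranged from -0.33 to 0.43 in filtered-air mice with a median of -0.037, and from 0.062 to 0.80 in ozone mice with a median of 0.37. The groups overlapped, with 4 of 6 filtered-air mice below every ozone mouse and 1 of 6 ozone mice above every filtered-air mouse. Mmp14 minus Timp2 had medians of 0.017 and 0.084, and Mmp9 minus Timp1 had medians of -0.047 and -0.16, both with overlapping groups. Since the scale compresses genes with few reads, these values compare mice and not the amounts of enzyme and inhibitor.

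What the genes shared was variation between mice of one group. The residual SD, the spread that exposure and batch leave, was above the median of all genes tested, 0.0814, in 10 of 10, and above the 90th percentile in 8 of 10. It was largest in Mmp12 (0.346), Adam8 (0.277) and Mmp9 (0.248) and smallest in Timp1 (0.107). Spread on this scale also depends on abundance, which is not known. Filtered-air mouse 4 was the highest of its group in 9 of the 10 genes, all except Mmp2, whereas it was the highest in 18.8% of all genes tested. Ozone mouse 4 was the highest of its group in 5 of the 10, Mmp12, Mmp14, Mmp19, Timp1 and Timp3, and in 15.6% of all genes.

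Filtered-air mouse 4 had the lowest RNA integrity number of the series, 8.9. It also had the highest mean of its group in the lists of monocyte or recruited macrophage genes (0.35), B and plasma cell genes (0.29), T and NK cell genes (0.26), alveolar epithelial genes (0.26), neutrophil genes (0.23) and dendritic cell genes (0.12), and the lowest mean of the resident alveolar macrophage genes (-0.12). The monocyte or recruited macrophage list, 10 genes detected in all 12 mice, ranged from -0.23 to 0.35 in filtered air and from -0.12 to 0.20 after ozone, with 0 of 10 called. The resident list ranged from -0.12 to 0.11 in filtered air and from -0.051 to 0.12 after ozone, with 2 of 10 called, Car4 higher and Krt79 lower. The part of other cells and of RNA quality in the values of this mouse was not tested. With RNA integrity as a covariate 0 of the 10 genes were called, and without this mouse, without ozone mouse 4 or without both, also 0.

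**Figure D3:**
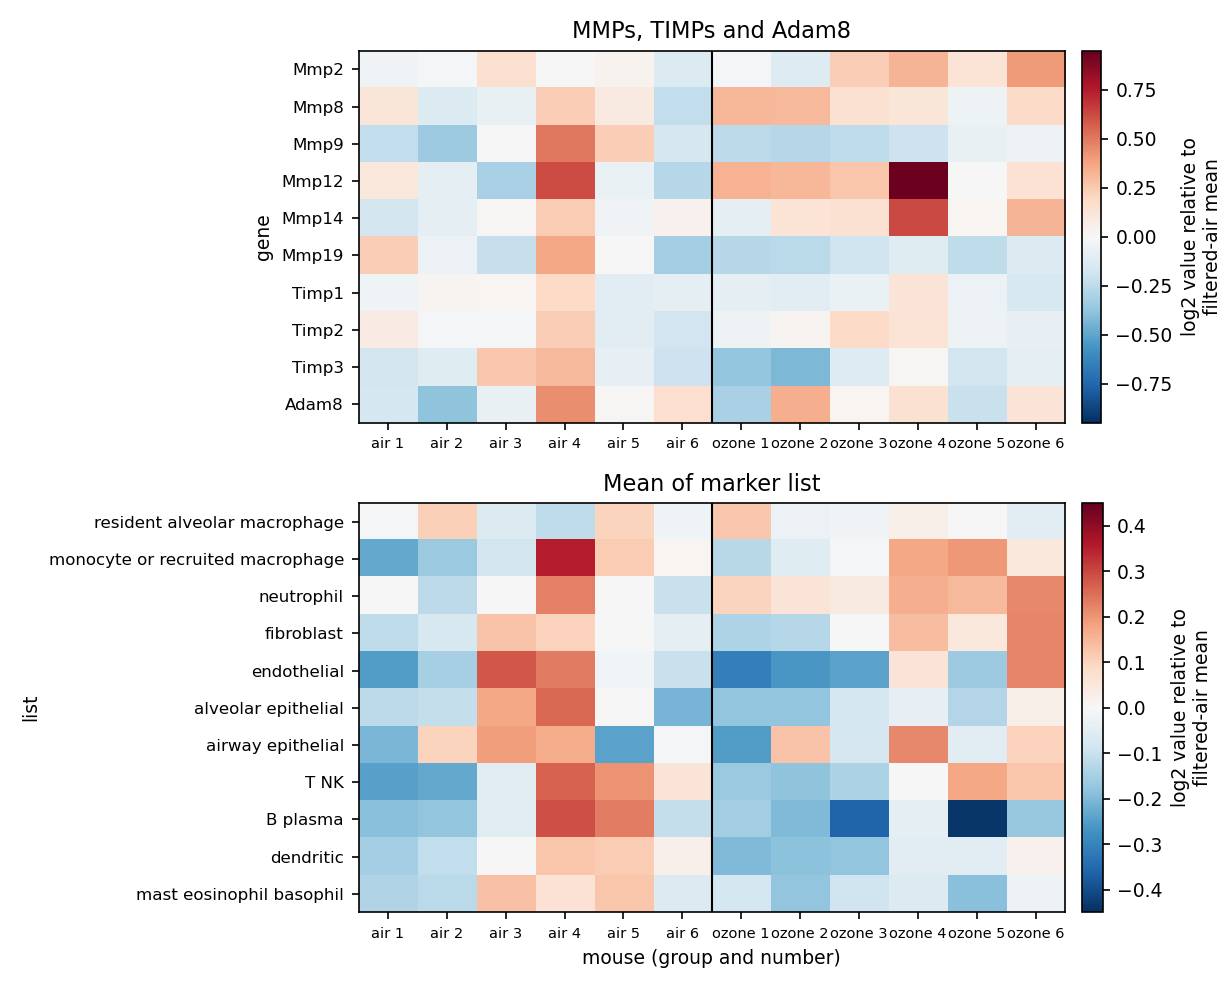
Log2 values relative to the filtered-air mean as colours, for the 10 genes (upper map) and for the mean of each marker list (lower map, with its own colour range), in rows, by mouse in columns. Filtered-air mouse 4 is high in nearly all of the 10 genes and in most lists of other cells, where the monocyte or recruited macrophage list reaches 0.35.

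Likeness of pattern was measured by correlation over the 12 mice with Mmp8, the gene with the smallest p-value, since no gene was called. Among genes outside the set, Gde1 (Pearson r = 0.893, Spearman rho = 0.916), Gm28729 (r = 0.879, rho = 0.893) and Rhbdd3 (r = 0.862, rho = 0.762) were the most alike. Without the 2 mice farthest from the median of Mmp8 the r values were 0.811, 0.781 and 0.812. After subtraction of the group-by-batch means the most alike were Sorbs2 (r = 0.934, rho = 0.951), Tspan1 (r = 0.932, rho = 0.923) and Ap2m1 (r = 0.905, rho = 0.853), and without the 2 farthest mice their r values were 0.836, 0.884 and 0.762. These are the highest of 19623 candidates and carry no p-value. None of the 6 was called between ozone and filtered air.

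Mmp8 and Mmp12 lie in a cluster of 10 MMP genes that spans 427.1 kb of chromosome 9 (GRCm38, 7272514 to 7699585). Of the other 8, Mmp3, Mmp10, Mmp13 and Mmp27 were tested, with differences from -0.039 to -0.0021 and 0 called, and Mmp1a, Mmp1b, Mmp7 and Mmp20 were detected in 0 mice. Over the whole list of MMPs outside the set, 11 of 17 were tested and 0 were called, 9 with lower and 2 with higher means, at a median of -0.012 against -0.0033 for all genes tested. The largest difference was that of the brain-type membrane MMP Mmp24, -0.063 (SE 0.0362, limma's adjusted p = 0.423).

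Related genes outside the MMP family were taken from lists of ADAM and ADAMTS proteases, inhibitors, the plasmin system, activators and partners, matrix substrates and transcription factors that bind MMP promoters. With the other MMPs these held 97 genes, of which 85 were tested and 9 were called, 3 higher and 6 lower. That is 10.6% of the 85, against 4.25% of all genes tested. The median difference of the 85 was -0.0011, and that of all genes tested -0.0033. The lists were drawn up with earlier results of these data known, Spp1 among them, so the counts are a description.

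Among proteases, 0 of 18 ADAM and ADAMTS genes were called. Of these, 11 had higher and 7 lower means, with a median of 0.038. The largest difference was that of the matrix protease Adamts6, -0.20 (SE 0.0572, limma's adjusted p = 0.0675). Adam17, the sheddase of Tnf and a target of Timp3, had separate groups, with all 6 ozone mice above all filtered-air mice, but a difference of 0.12 (SE 0.0383) with an adjusted p of 0.111.

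Slpi, the secretory leukocyte inhibitor of serine elastases, ranged from -0.37 to 0.44 in filtered air and from -0.76 to -0.39 after ozone. The groups were separate, and Slpi fell by 0.52 (SE 0.117, limma's adjusted p = 0.0206). It was the only one of 7 tested inhibitors outside the set to be called, and the median of the list was -0.035.

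In the plasmin system, which can activate MMP proenzymes, 2 of 9 were called, both lower, with a median of -0.096. Plaur, the receptor that holds urokinase at the cell surface, ranged from -0.13 to 0.17 in filtered air and from -0.43 to -0.045 after ozone, and fell by 0.29 (SE 0.0652, limma's adjusted p = 0.0204). S100a10, a plasminogen receptor subunit, fell by 0.24 (SE 0.0633, adjusted p = 0.0484). Plau, which encodes urokinase itself, had a difference of 0.13 (SE 0.0811, adjusted p = 0.484).

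Among activators and partners, 2 of 9 were called, both lower, with a median of -0.025. Furin, the convertase that cleaves the propeptide of Mmp14 and other membrane MMPs, ranged from -0.21 to 0.13 in filtered air and from -0.50 to -0.089 after ozone. Of the ozone mice 5 of 6 lay below every filtered-air mouse, and Furin fell by 0.37 (SE 0.0761, limma's adjusted p = 0.0124). Cd151, a tetraspanin that associates with integrins and with pro-Mmp7, had separate groups at -0.074 to 0.047 and -0.40 to -0.26, and fell by 0.32 (SE 0.0362, adjusted p = 0.000428).

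Of 16 matrix substrates 2 were called, both higher, and 13 had higher means, with a list median of 0.16. The list shares Col1a1, Col1a2 and Col3a1 with the fibroblast markers, whose median was 0.0082. Spp1, which encodes osteopontin, a secreted protein that several MMPs cleave, ranged from -0.30 to 0.25 in filtered air and from 0.54 to 0.82 after ozone, and rose by 0.71 (SE 0.0810, limma's adjusted p = 0.000428). Eln, which encodes tropoelastin, the substrate of Mmp12, ranged from -0.30 to 0.24 and from 0.12 to 0.69, and rose by 0.44 (SE 0.117, adjusted p = 0.0477). The highest Eln value was that of ozone mouse 6, the mouse with the highest fibroblast marker mean (0.22). That mouse also had the highest endothelial (0.22) and alveolar epithelial (0.025) means after ozone. In filtered air Eln was highest in mouse 5, where the fibroblast mean was -0.0021. The part of stromal or other RNA in the Eln values was not tested.

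Of 15 transcription factors, 2 were called, 1 in each direction, with a median of -0.0081. Fos rose by 0.57 (SE 0.118, limma's adjusted p = 0.0136), from a range of -0.51 to 0.27 to one of 0.32 to 0.79, with separate groups and differences of 0.31 in batch 1 and 0.83 in batch 2. Stat3, a cytokine-activated factor, fell by 0.17 (SE 0.0450, adjusted p = 0.0484). The other AP-1 subunits listed were not called. Differences were 0.29 for Fosb (adjusted p = 0.158), 0.19 for Jun (0.523) and 0.18 for Junb (0.222), and -0.23 for Fosl1 (0.0662), -0.13 for Fosl2 (0.298) and -0.0081 for Jund (0.973).

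The calls of Cd151, Furin, Spp1 and Fos held in each of the 12 fits that left out 1 mouse. Other settings ended some of them. With a variance trend in limma the adjusted p was 0.0710 for Spp1, 0.0517 for Fos and 0.0530 for Slpi, and after quantile normalization it was 0.140 for Fos, 0.0883 for Furin, 0.125 for Plaur and 0.246 for Slpi. Eln, S100a10 and Stat3 were called under neither, nor with RNA integrity as a covariate in limma (adjusted p = 0.0669, 0.0582 and 0.0674). Without the filter on low values the calls of Eln (0.0746) and S100a10 (0.0649) were lost. The robust variance prior ended that of Eln (0.0723), and the replicate block that of Stat3 (0.0646). Within single flow-sort batches, with 3 mice a group, the one call of the 9 was that of Spp1 in batch 1. With single mice left out, the call of Slpi was lost without filtered-air mouse 1 (adjusted p = 0.0555), and that of Plaur without filtered-air mouse 1 (0.0557) or ozone mouse 5 (0.0527). Of the 12 fits, Eln was called in 4 (without filtered-air mice 4 or 5 or ozone mice 1 or 2, adjusted p at most 0.110 in the others). S100a10 was called in 3 (without filtered-air mice 5 or 6 or ozone mouse 1, at most 0.116 in the others), and Stat3 in 1 (without filtered-air mouse 3, at most 0.0988 in the others).

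**Figure D4:**
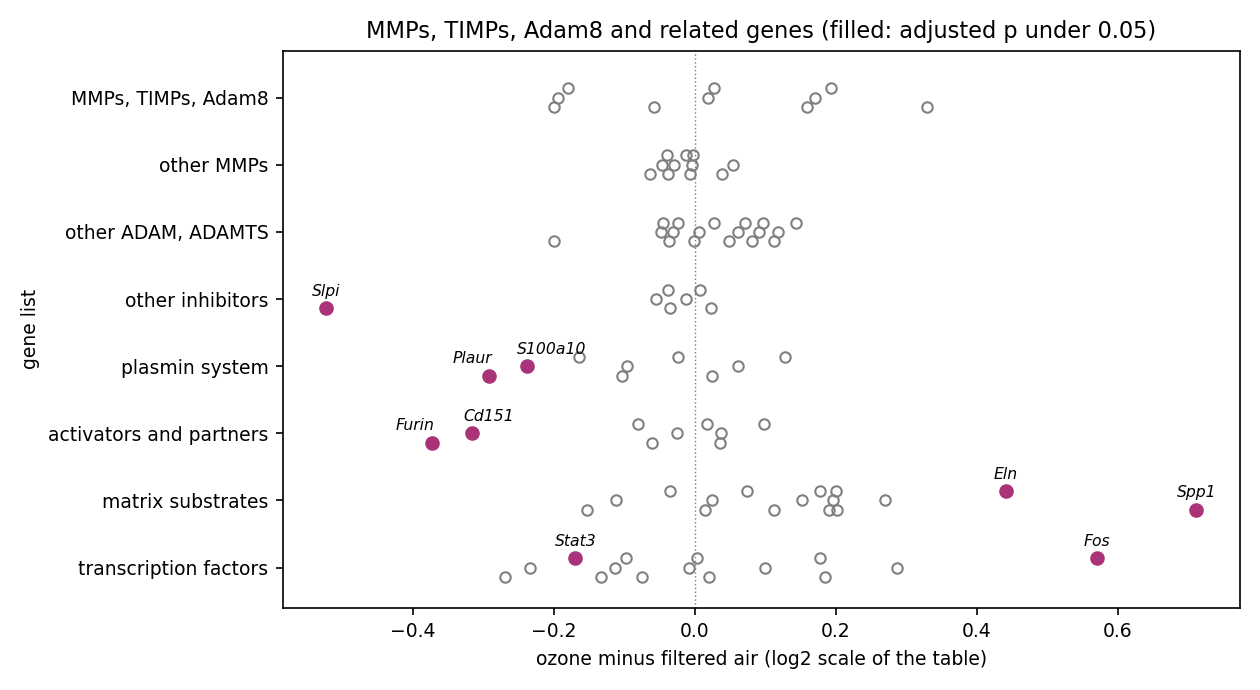
Difference between ozone and filtered air on the log2 scale of the table (horizontal axis) for each tested gene, by list (vertical axis), with filled points and names for adjusted p-values under 0.05. The MMPs, TIMPs and Adam8 hold no filled point, and the 9 called genes lie in the lists of inhibitors, the plasmin system, activators, substrates and transcription factors, from Slpi at -0.52 to Spp1 at 0.71.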

How the data were processed

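RNA-seq values of 12 mice came from 1 deposited table, in which each column matched the title of 1 sample and 0 columns were unmatched. Its log2 values had been variance-stabilized and batch-corrected by the authors, per the name of the deposited file. The submitters' processing notes name cutadapt, STAR 2.7.7a, Salmon 1.5.2, DESeq2 1.26.0, R 3.6.0, limma 3.42.2 and mm10, without their roles. The annotation is not given in the sources used here. The filtered-air mean is 0 in every gene, so the values are differences from it.

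Of 25444 symbols that were not constant, 19633 were kept, with at least 6 of 12 mice above the lowest value shared by mice of a flow-sort batch (within 1e-07). Ozone was compared with filtered air in limma 3.58.1 (R 4.3.3), in a model that also held the flow-sort batch, without a variance trend, two-sided, with Benjamini-Hochberg adjustment over all genes kept and a threshold of 0.05. The fit was tested on simulated data. The mice are the replicates. Same-numbered mice are different animals and were not paired.

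The genes of the set, the lists and the tests were chosen with earlier results of these data known. All 10 genes are described. Of each list of related genes every called gene is named or, without one, the gene with the largest difference, and further genes were named after their values were seen. Likeness was sought for the called genes or, without one, for the gene with the smallest p-value. Alternatives were the filter, the batch covariate, the variance prior, quantile normalization, RNA integrity as a covariate, each batch alone, a replicate block and each mouse left out. The pair of mice numbered 4 was left out together after the data had been seen. Gene positions are from GENCODE M21 and promoters from RefSeq (both GRCm38, which is mm10). The kit was stranded, per the labels' protocols, but whether counting used strand is not given in the sources used here. Mmp12, Mmp19, Timp1, Timp3 and Adam8 overlap a gene on the other strand, and Timp2 and Adam8 one on their own, so reads may be shared there. Precision is limited by 6 mice a group, and read totals are unknown.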

Additional observations from a re-analysis of the deposited data

Results flagged for a closer look

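A mouse far from the rest of its group was found in 2 of the 20 combinations of gene and group examined (by Dixon's ratio at the 95% level), where chance gives about 1. Both were ozone mouse 4. It lay at 0.93 in Mmp12 (ratio 0.652) and at 0.12 in Timp1 (ratio 0.650), in each case above the other 5 ozone mice. Without it the difference of Mmp12 was 0.20 and that of Timp1 -0.098, and neither was called with or without it.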

How the results depend on the processing

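The count of 0 called among the 10 genes was the same in each alternative except the replicate block. It also held in the 12 fits without single mice (0 in each). The count of 0 with a batch interaction held in every setting run. Of all genes tested, 834 were called, a count that moved to 171 after quantile normalization, 90 in batch 1 alone, 0 in batch 2 alone and 534 without both mice numbered 4, and ran from 538 to 751 without single mice, the lowest without filtered-air mouse 1. Without the batch covariate the count was 1152, and with the variance trend 611. The 9 related genes became 3 with the variance trend, 2 after quantile normalization, 1 in batch 1, 0 in batch 2 and 4 without both mice numbered 4, and 4 to 11 without single mice. They became 12 without the batch covariate. Called with the trend were Plaur, Cd151 and Furin, after quantile normalization Cd151 and Spp1, and without both mice numbered 4 Slpi, Cd151, Spp1 and Fos. Batches alone and left-out mice use fewer samples, and otherwise the cause was not tested.

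Signs changed in Timp1 in batch 1 (0.028) and in Adam8 in batch 2 (-0.13). Without single mice Adam8 ran from -0.067 to 0.12 and Timp2 from -0.014 to 0.078. Of 230 results for the 10 genes under alternatives, 219 kept their sign and side of the threshold and 9 changed sign. The replicate numbers share no stated source, and same-numbered mice had correlated deviations of -0.0026 to 0.28, over 0.1 in 4 of 6 pairs, with 6 of 12 mice correlating best with their own number. With the replicate block 2 of the 10 were called, Mmp12 (0.33, adjusted p = 0.0159) and Mmp14 (0.19, adjusted p = 0.0374), both higher, and 853 genes over the whole table; over all alternatives the adjusted p of Mmp12 ran from 0.0159 to 0.890 and that of Mmp14 from 0.0374 to 0.922.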

Other observations

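Of the lists of other cells, that of alveolar epithelial genes held 1 call among 10, Epcam, an epithelial adhesion molecule, with a difference of -0.55 in limma (adjusted p = 0.00620, SE 0.0992) and all 6 ozone mice below all filtered-air mice. Over all genes tested, 10210 of 19633 had lower means after ozone, and 16.7% had an unadjusted p under 0.05 in limma. B and plasma cell genes had lower means after ozone in 10 of 10, with a median of -0.19 and 5 at an unadjusted p under 0.05, but 0 were called in limma. The smallest p-value was that of Cd79a, a chain of the B-cell receptor complex (-0.29, SE 0.0867, adjusted p = 0.0853). The mean of this list was 0.29 and 0.23 in filtered-air mice 4 and 5, and -0.19 to -0.0475 in the other filtered-air mice. After ozone it ran from -0.44 to -0.0415. Dendritic cell genes were lower in 9 of 10, with a median of -0.11, 4 at an unadjusted p under 0.05 and 0 called. Means were also lower in 9 of 10 endothelial genes (median -0.086, 0 called), in 8 of 10 alveolar epithelial genes (median -0.046) and in 4 of the 4 mast cell, eosinophil and basophil genes tested (median -0.062, 0 called).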
